A study of Danio rerio with 4 samples.

Results

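The most abundant RNAs of primary growth ovarian follicles of the zebrafish (Danio rerio) are described here, the 200 most abundant protein-coding genes of 25742 and the 20 most abundant miRNAs of 118. The genes were ranked by FPKM (fragments scaled to transcript length and library size) in the primary growth mRNA library, after transcripts of 1 gene name were summed and genes with an FPKM-weighted length under 300 bases were set aside. The miRNAs were ranked by RPM (reads scaled to a common library total) in the primary growth small RNA library. The ranking itself chose these genes and miRNAs, so their levels are given as a description, without a test.

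The study compared follicles at 2 stages, primary growth and the pre-vitellogenic stage that follows it, to find miRNAs and possible targets that differ as follicles are activated. All follicles came from fish of strain AB, 3 months old, whose ovaries were dissected and whose follicles were sorted by size and morphology. None of the groups received a treatment, and each stage gave 1 mRNA library and 1 small RNA library. The titles of all 4 libraries read PG, and the stage was taken from the cell type label. A follicle is an oocyte with its surrounding follicle cells, so each library mixes the RNA of both, and the labels do not say how many fish were pooled for a library. In such bulk samples fewer cells of a type and less RNA per cell cannot be told apart.

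A primary growth oocyte is arrested in the prophase of the first meiotic division and grows without taking up yolk. It transcribes many genes strongly and stores much of the RNA for later use by the egg and the early embryo, which begins life without transcription of its own. The oocyte also starts to make its egg envelope, which in fish is built from zona pellucida (ZP) glycoproteins. A miRNA is a short RNA that guides a silencing complex to mRNAs, mainly by pairing through its seed, bases 2 to 8 from its 5′ end.

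The 15 sequences below show the 10 most abundant miRNAs, then miR-202-5p, the miRNA known for its expression in gonads, and then the 4 members needed to see which abundant miRNAs share a seed with another. They are the mature sequences of the deposited table, 5′ to 3′ in DNA letters, with the seed in capitals.
miR-22a-3p: aAGCTGCCagctgaagaactgt
miR-100-5p: aACCCGTAgatccgaacttgtg
miR-20a-5p: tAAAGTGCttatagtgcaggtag
let-7a: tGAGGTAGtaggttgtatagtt
miR-26a-5p: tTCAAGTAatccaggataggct
miR-92a-3p: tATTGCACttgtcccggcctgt
miR-143: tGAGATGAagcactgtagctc
miR-9-5p: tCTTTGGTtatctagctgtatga
miR-99: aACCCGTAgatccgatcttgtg
miR-21: tAGCTTATcagactggtgttggc
miR-202-5p: tTCCTATGcatatacctctttg
miR-146a: tGAGAACTgaattccatagatgg
miR-146b: tGAGAACTgaattccaagggtg
miR-125b-5p: tCCCTGAGaccctaacttgtga
miR-125a: tCCCTGAGacccttaacctgtg

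The label was first set against marker genes. All 12 oocyte markers were above 0 FPKM in the primary growth library and 11 were at 1 FPKM or more. They summed to 7215 FPKM, from figla at 0.441 to h1m, the maternal linker histone, at 2338 FPKM, and h1m, btg4, zp3b, zar1 and buc ranked 39, 80, 87, 110 and 159 among coding genes. Other oocyte markers were lower, with nanos3 at 121.6, bmp15 at 116.8, dazl at 82.3, vasa at 79.4, gdf9 at 56.4 and nobox at 30.2 FPKM. Of the 13 markers of granulosa and theca cells, the follicle cells around the oocyte, only inha reached 1 FPKM, at 1.25. These 13 summed to 3.49 FPKM, with fshr, star and nr5a1a listed at 0 and gsdf at 0.963 FPKM, and they summed to 26.1 FPKM in the pre-vitellogenic library. The other follicle cell markers lay between 0.0226 FPKM for cyp11c1 and 0.315 for cyp19a1a, with nr5a2, lhcgr, amh, inhbaa, foxl2 and wt1a between these values.

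Most markers of other cells were low as well, but hbaa1 of erythrocytes was near the oocyte marker gdf9, at 56.4 FPKM. Of 7 erythrocyte markers 2 were at 1 FPKM or more, hbaa1 at 55.1 and hbba1 at 10.4, with hbaa2 and hbba2 listed at 0 and alas2, slc4a1a and epb41b under 1. Of 7 leukocyte markers 3 reached it, cd74a at 11.6, coro1a at 2.28 and lyz at 2.08, with ptprc, lcp1 and mpx lower and mpeg1.1 listed at 0. Smooth muscle and vessel markers summed to 10.4 FPKM over the 7 of 8 that were found, with cnn1b at 3.40, acta2 at 2.90 and tagln at 1.70. There kdrl, cdh5, fli1a and myh11a were under 1, and pecam1 was not matched. Of the 7 genes of liver and yolk precursors, vtg1, vtg2, vtg5 and fabp10a were listed at 0, vtg3 and apoa1a were under 1, and tfa was at 1.70 FPKM. The oocyte markers summed to more than each of the 5 other lists, whose sums ran from 2.43 to 66.1 FPKM. Most of the oocyte sum came from h1m, btg4, zp3b, zar1 and buc, which are themselves members of the ranking. In the pre-vitellogenic library the oocyte markers also summed highest, at 2999 FPKM, against 1.78 to 62.8 FPKM for the other lists. The lists hold different kinds of genes, so these sums do not measure cell content, and they do not tell the 2 stages apart.

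The mRNA library was concentrated on few genes. Of 20137 gene names above 0 FPKM, 18981 were coding genes of 300 bases or more, and 11974 of these were at 1 FPKM or more. The 200 most abundant summed to 302205 FPKM, which is 41.4% of the 730172 FPKM of the library and 43.4% of that of coding genes of 300 bases or more. They were 1.67% of the coding genes at 1 FPKM or more. The highest gene alone held 0.789% of the FPKM, the first 10 held 6.17%, the first 25 held 12.5%, the first 50 held 20.4% and the first 100 held 30.3%. In all, 65 genes made up 25% of coding FPKM, 296 genes 50% and 1418 genes 75%.

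**Figure D1:**
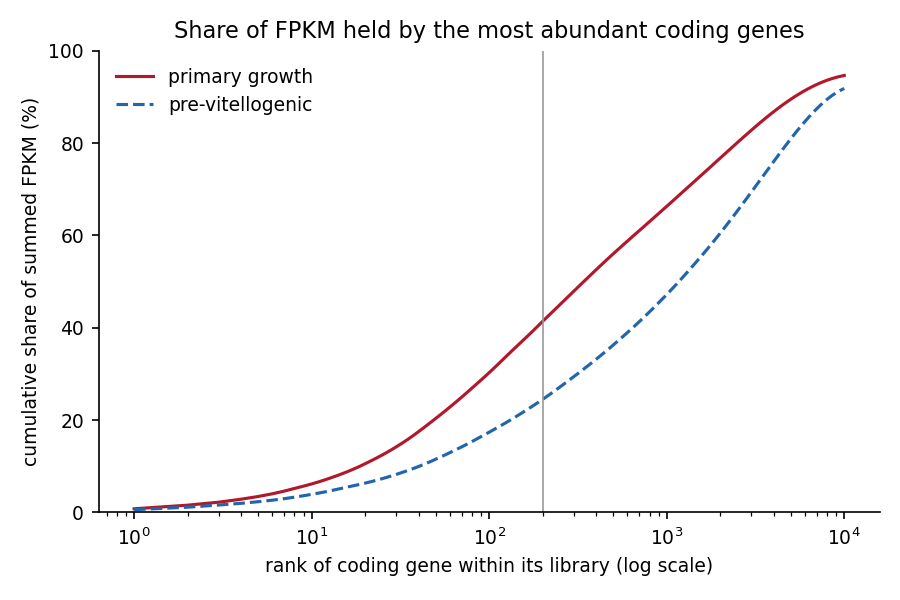
Cumulative share of the library's summed FPKM (vertical axis, %) against the rank of coding genes of 300 bases or more within their own library (horizontal axis, log scale), for primary growth (solid red) and pre-vitellogenic follicles (dashed blue), 1 library each. At rank 200, the grey line, the primary growth curve stands at 41.4% and the other at 24.5%.

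Levels among the 200 genes ran from 5761 to 590.7 FPKM, a 9.75-fold range, with a median of 1127 FPKM, whereas the median of all coding genes at 1 FPKM or more was 11.5 FPKM. There was no step at the lower end. The last genes inside were btg3 at 610.2, elovl7b at 607.2, mt-co1 at 602.1, chac1 at 593.9 and rps19 at 590.7 FPKM. The first outside were rps29 at 587.4, si:dkey-216e24.3 at 579.2, oaz1a at 578.7, hmga1a at 577.9 and si:dkey-241l7.6 at 576.7 FPKM.

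The precision of single levels was limited, and the read depth of the mRNA library is unknown. With 1 library there is no replicate spread, and the authors' deposited bounds are the only error available. For the most abundant transcript of each gene the interval had a median width of 1.93 times the FPKM. In 72 genes its lower bound was 0, and for zp3a.1 the estimate was marked as failed. Only 10 genes had a narrow interval, 0.0840 to 0.0935 times the FPKM wide, and in the others it was at least 1.74 times as wide as the value. These 10 were zgc:173556, zgc:171781, si:ch211-226h8.14, zp3.2, CU929143.1, wu:fi42e03, nasp, si:ch211-12h2.6, si:dkey-240e12.6 and BX548000.1, and the same 10 were those with a lower bound above the value at rank 200. The order of neighbours in the ranking is therefore not resolved for most genes. Whether near-identical copies share reads was not tested.

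Genes without a descriptive name as deposited led the ranking. Of the 200, 67 (33.5%) carried a clone name, a provisional project name or no name, against 13.9% of coding genes at 1 FPKM or more, and they held 19.1% of the FPKM. They were 9 of the first 10, 17 of the first 25 and 30 of the first 50. These counts go by the deposited name, so they include genes with a descriptive current symbol, such as tmsb5 and zp3e, described below. The highest was zgc:173556, at 5761 FPKM (primary growth) and 2014 FPKM (pre-vitellogenic), on chromosome 17 at 2352389 to 2355995. Next to it lie both IDs pooled under zp3.2, itself at rank 10, at 2358510 to 2362392 and at 2365375 to 2368214. Next came zgc:171781 on chromosome 22 at 5719 FPKM, with bounds of its only transcript at 5474 and 5965, and then si:ch211-226h8.4 at 4761 FPKM. CABZ01059627.2 and CABZ01059627.1 stood at 4659 and 4330, zgc:165539 at 4254 and si:ch211-226h8.14 at 4239 FPKM. Further down were si:ch211-263m18.4 at 3668, zgc:171776 at 3427, si:dkey-241l7.2 at 3363, CU929143.1 at 3238, AL929192.3 at 3159 and zgc:153499 at 3056 FPKM. The last of the first 25 with such names were zgc:195245 at 3028 and zgc:173770 at 2794 FPKM. No role is given to these genes here, since neither the table nor the gene tables at hand annotate one.

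A few provisional names resolve to known genes. The gene si:dkey-167i21.2, at 4208 FPKM the eighth gene of the ranking, is tmsb5 in current nomenclature, a beta-thymosin, a family that binds actin monomers. The gene zgc:171779, at 3053 FPKM, is zp3e, and QDPR (6 of 6), at 2801 FPKM, is qdprb.4, named for dihydropteridine reductase. In 7 of the 200, the name pooled more than 1 gene ID. The level under ddx41, 2683 FPKM, came almost wholly from ENSDARG00000095741 on chromosome 9, now si:ch1073-75o15.3, with 2662 FPKM. The ID on chromosome 14 that shares the name ddx41 had 21.2 FPKM. Likewise 2038 of the 2044 FPKM under phc2b came from an ID of 423 bases on chromosome 1 at 774782 to 775204, and 5.89 FPKM from phc2b itself on chromosome 6. Neither ddx41 nor phc2b is thus an abundant gene of this library, although both names stand in the ranking.

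By function, 123 of the 200 genes stood on 1 of 19 lists and held 20.9% of the FPKM. The other 77 held 20.5%, of which 59 had a clone name or none and 18 a gene name. Among the last were mid1ip1l, at 3092 FPKM, which in zebrafish is a maternal factor for the organisation of cortical granules and germ plasm in the early embryo. Apart from it and the names ddx41, phc2b and QDPR (6 of 6), the genes with a name but no list ran from retsatl at 1725 to chac1 at 593.9 FPKM. Over all coding genes of 300 bases or more, 0.777% were members. List counts near this share, such as those of cell contact (0.911%), ubiquitin (0.725%) and RNA processing genes (0.717%), are not read as a result. Nor is the absence of members from the 101 polyamine and nucleotide metabolism genes.

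**Figure D2:**
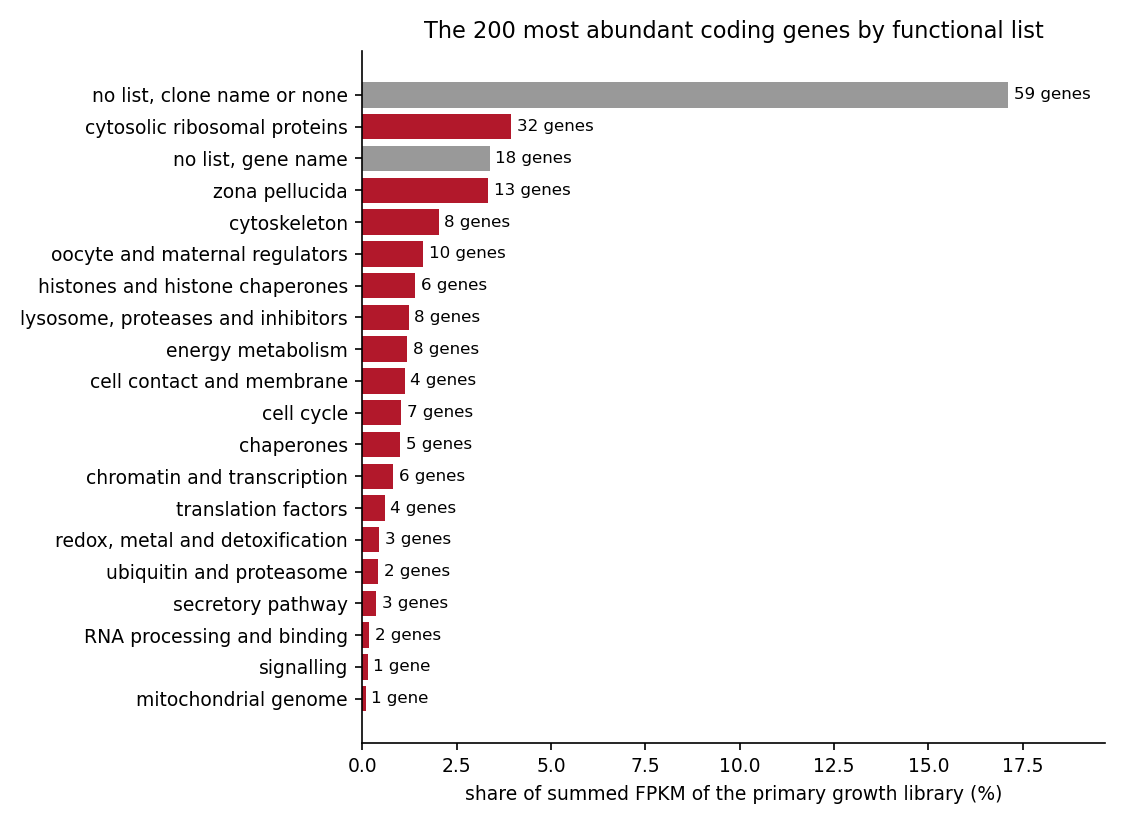
Share of the library's summed FPKM (horizontal axis, %) held by the 200 most abundant coding genes, split by functional list, with the number of genes at each bar, in the single primary growth mRNA library. Red bars are lists and grey bars genes on no list. The 59 genes with a clone name or none form the longest bar, at 17.1%, ahead of the 32 ribosomal protein genes at 3.94% and the 13 ZP genes at 3.34%.

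Egg envelope genes were the list with the largest part of its members among the 200. All 23 measured ZP genes were at 1 FPKM or more, with a median of 967.7 FPKM, and 13 of them were in the ranking. The 13 held 3.34% of the FPKM and the whole list 3.63%, against 1.63% in the pre-vitellogenic library. Of the zp3 type, which in vertebrates is a structural subunit of the envelope, 6 of 10 genes were members. These were zp3.2 at 3478, zp3e at 3053, zp3a.1 at 2355, zp3a.2 at 2053, si:ch211-14a17.7 (zp3f.1) at 1518 and zp3b at 1260 FPKM. Of the zp2 type 4 of 7 were members, zp2.2 at 2672, zp2l1 at 1519, zp2.5 at 967.7 and zp2.3 at 637.9 FPKM. Of the zpax type 2 of 3 were members, ZP2 (3 of 4) (zpax4) at 2134 and ZP2 (2 of 4) (zpax1) at 1546 FPKM, and zpcx stood at 1191 FPKM. The 2 IDs under zp3.2 had 1890 and 1588 FPKM, so each alone would rank among the 200.

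Many ZP genes lie side by side and may share reads. The genes zp3a.2 and zp3a.1 are 2.39 kb apart on chromosome 20, on the same strand, and the estimate of zp3a.1 was the one marked as failed. On the same chromosome zp2.2, zp2.3 and zp2.5 lie within 24.5 kb, at 54548463 to 54572927 (Zv9), among 6 coding genes. The sources used here do not say how the authors' quantification divided reads among such copies, so the level of 1 copy is less certain than that of the family.

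Genes of cytosolic ribosomal proteins were the largest list by number. Of 86 measured, 84 were at 1 FPKM or more, with a median of 514.6 FPKM, and 32 were among the 200. These 32 held 3.94% of the FPKM and the whole list 6.65%, against 3.48% in the pre-vitellogenic library. The most abundant were rpl19 at 1700, rpl12 at 1485, rps12 at 1250 and rps14 at 1227 FPKM. Of the 48 genes of the large subunit 21 were members, and of the 35 of the small subunit 11, with medians of 544.0 and 480.4 FPKM over each subunit's genes at 1 FPKM or more. The limit of rank 200 cuts through this list, with rps19 the last gene inside and rps29 the first outside. Since the proteins are small, their count depends on the scale: ranked by FPKM times length, 12 of these genes were among the 200. Translation factors added eef1a1l1 at 1499, EIF1B at 1116, eif5a2 at 1009 and bzw1b at 659.6 FPKM, 4 of the 109 measured. The ribosome-bound scaffold gene gnb2l1 (RACK1) stood at 1054 FPKM. It was the only member among 566 measured genes of the signalling list (0.177%, against 0.777% over all coding genes of 300 bases or more).

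Regulators known from oocytes and eggs gave 10 of 78 measured genes, with 1.61% of the FPKM. The highest was the carbonic anhydrase gene ca15b at 3069 FPKM. It was followed by zgc:158856 (slbp2), the oocyte type of the protein that binds the stem loop of histone mRNAs, at 1761 FPKM. Next were btg4, which in mouse recruits deadenylases to maternal mRNAs, at 1326 FPKM, and zar1, which binds and represses maternal mRNAs, at 1086 FPKM. buc, which organises the Balbiani body of the zebrafish oocyte, stood at 718.4 FPKM here and at 495.6 FPKM in the later stage.

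Of 35 histone and histone chaperone genes 6 were members, with 1.39% of the FPKM. The highest was the name h3f3a, the replacement histone H3.3, at 2425 FPKM, which pooled h3f3d at 1692 and h3f3a at 732.4 FPKM. The histone chaperone nasp followed at 2402 FPKM, with narrow bounds, then h1m at 2338 and the histone variant gene h2afva at 1292 FPKM. The list of other chromatin and transcription genes gave 6 of 284. They were led by ran, the GTPase of nuclear transport, at 1415 FPKM, and by gtf3ab at 1395 FPKM, which encodes TFIIIA, the factor that binds the 5S ribosomal RNA gene and, in Xenopus oocytes, 5S RNA itself. The importin gene kpna7 stood at 1107 and hmgb2a at 704.7 FPKM.

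The cytoskeleton list gave 8 of 136 genes and 2.02% of the FPKM. After tmsb5 came actb1 at 2359, tubb4b at 2126 and tuba4l at 1802 FPKM, encoding actin and tubulins. Cell contact genes gave 4 of 439 measured (0.911%), near the share over all coding genes. The claudin gene cldnd, of a family that forms tight junctions, stood at 3445 FPKM, cldng at 1619, the adhesion gene epcam at 1848 and thy1 at 1244 FPKM. Only 12 of 41 claudins were at 1 FPKM or more, with a median of 4.23 FPKM, so cldnd and cldng stood far above the rest of their family.

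Cell cycle genes gave 7 of 143. The cyclin B1 gene ccnb1, whose product drives entry into M phase with its kinase, was at 1775 FPKM, ccna1 at 1289, the replication licensing inhibitor gmnn at 1089 and ccnb2 at 1055 FPKM. Of 7 genes of cyclins A and B, 3 were members and all 7 were at 1 FPKM or more. The chaperones gave 5 of 153, with hsp90ab1 at 2570, hspa8 at 2026, ppiaa at 1281 and hspa5 at 709.9 FPKM. The ubiquitin list gave 2 of 276, the deubiquitinase gene uchl1 at 2320 and ubc at 756.9 FPKM.

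Energy metabolism gave 8 of 279 genes and 1.19% of the FPKM, led by the glycolytic gene gapdh at 2984 FPKM, with the creatine kinase ckbb at 984.0, the ADP/ATP carrier slc25a5 at 940.4 and cox17 at 858.4 FPKM. The lysosome and protease list gave 8 of 141 and 1.23% of the FPKM, with the autophagy gene map1lc3c at 1767, the cathepsin ctsba at 1289, zgc:77118, of the palmitoyl-protein thioesterase family, at 1218 and acp5a at 1171 FPKM. Of the redox and metal list 3 of 205 were members, the metallothionein mt2 at 1433 and the ferritins zgc:92066 (fthl27) at 1047 and fth1a at 814.4 FPKM. The secretory pathway gave sec61b at 1096, p4hb at 854.2 and sec61g at 714.7 FPKM, 3 of 39. RNA processing gave hnrnpabb at 692.6 and nhp2l1b at 638.1 FPKM, 2 of 279. Of the 11 mitochondrially encoded coding genes of 300 bases or more, 1 was a member (9.09%), mt-co1. The mitochondrial gene mt-atp8, at 1151 FPKM, was set aside for its length of 165 bases. None of the 101 genes of polyamine and nucleotide metabolism was a member.

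The abundant genes were short. Their median length was 982.4 bases, against 1732 bases for coding genes at 1 FPKM or more, and 101 of them (50.5%) were under 1000 bases, against 19.5%. With coding genes at 1 FPKM or more split into 10 length classes of equal size, the shortest had a median length of 568.7 bases, and there 65 of 1198 genes (5.43%) were members. In the longest class, of median length 4844 bases, none of 1198 was. The share fell with length, apart from the eighth class, of 2370 to 2865 bases, where 13 of 1197 (1.09%) were members. All 7 genes of the chromosome 24 cluster described below fall in this class. FPKM divides by length, and weighting each gene's FPKM by its length gave the same 200 genes 35.8% of the total in place of 41.4%.

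**Figure D3:**
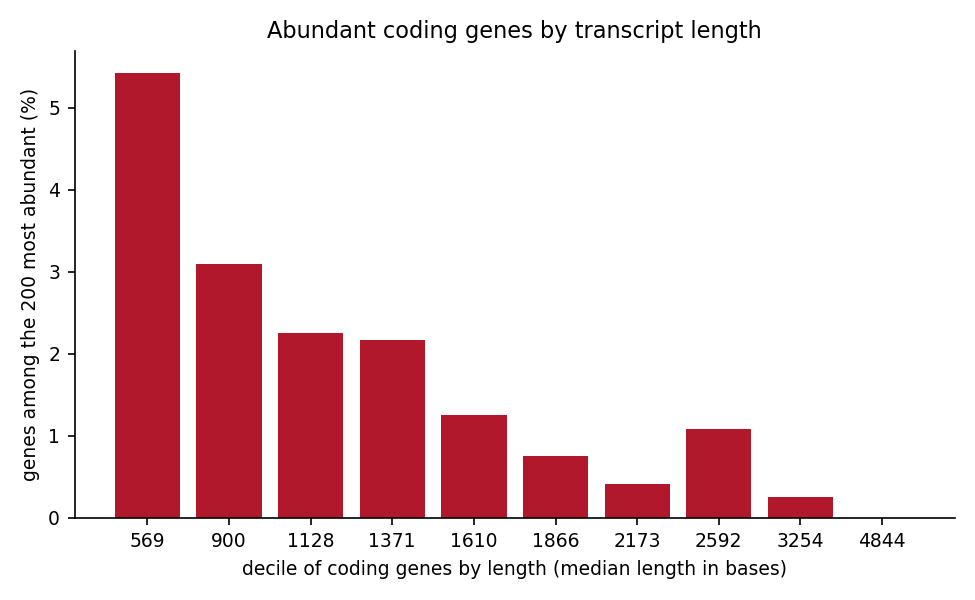
Share of genes among the 200 most abundant (vertical axis, %) in each of 10 equal classes of the coding genes at 1 FPKM or more ordered by length, labelled with the class's median length in bases, in the single primary growth mRNA library. The bars fall from 5.43% in the shortest class to 0 in the longest, with 1.09% in the eighth.

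Many of the abundant genes without a descriptive name lie next to each other. When members whose main transcripts were at most 100 kb apart were joined, 11 clusters of 3 or more members held 47 of the 200 genes (23.5%) and 13.1% of the FPKM. In the next blocks of 200 genes, the same rule placed 4 genes of ranks 201 to 400 in clusters, 4 of ranks 401 to 600 and 0 of ranks 601 to 800 and 801 to 1000. The contrast with the next block was smaller when pairs were counted too. Groups of 2 or more then held 67 of the first 200 genes and 42 of ranks 201 to 400. They held 14 genes of ranks 401 to 600, 14 of ranks 601 to 800 and 16 of ranks 801 to 1000. Of the 47 genes, 42 had a clone name or none and 43 were on no list. The rule for these clusters was set after the positions had been seen, so the counts are a description.

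**Figure D4:**
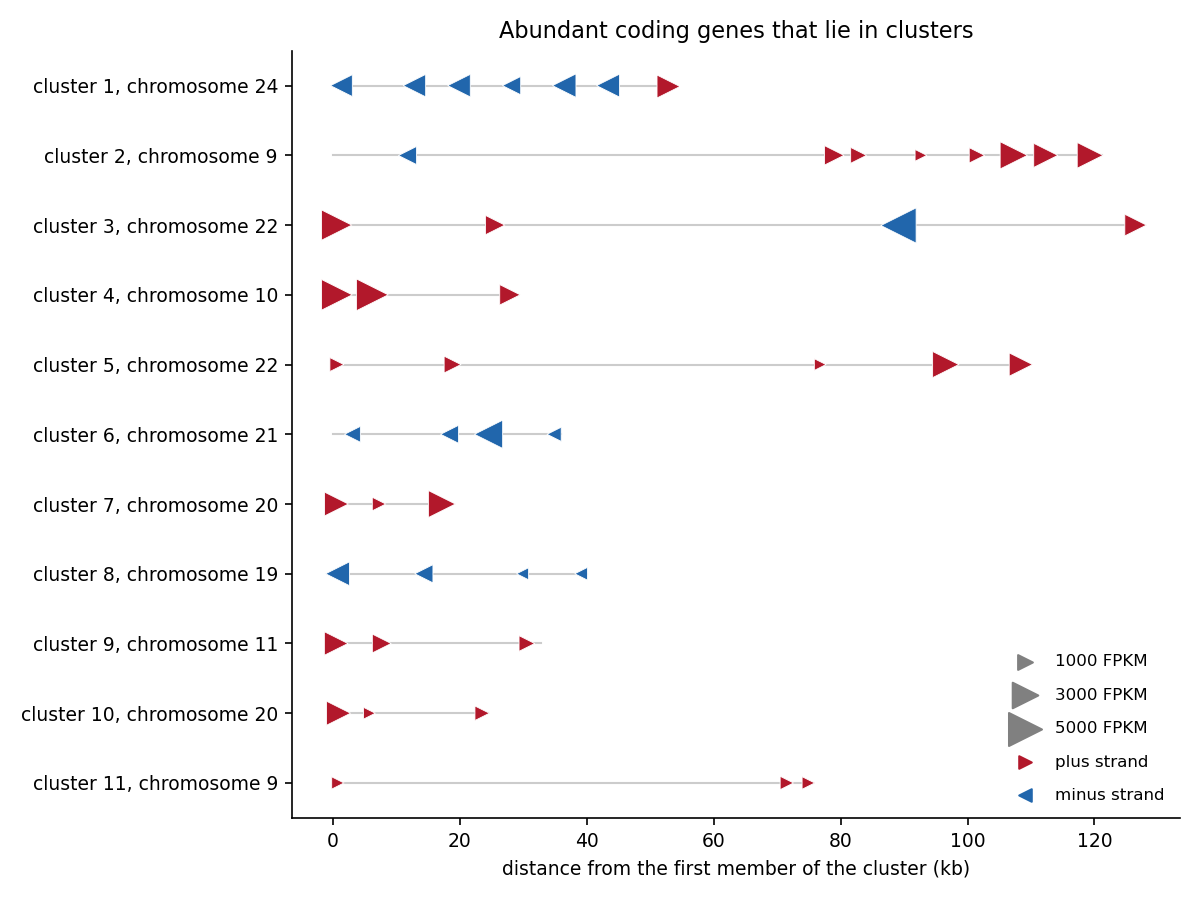
The 11 clusters of abundant coding genes, drawn as distance in kb from the first member (horizontal axis), 1 line per cluster in order of summed FPKM. Each triangle is a gene, its area proportional to FPKM in the single primary growth mRNA library and its direction and colour the strand. Cluster 1 on chromosome 24 shows 7 triangles of like size within 54.1 kb, and clusters 3 and 4 hold the largest triangles.

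At this gap of 100 kb, the cluster with the most FPKM lay at chr24:9777358-9831484 (Zv9). All 7 coding genes of this span were members, 6 of them on the minus strand. They were zgc:171977 at 2200, zgc:152652 at 2323, si:ch211-146l10.7 at 2350, zgc:171750 at 1537, zgc:171474 at 2548, zgc:173856 at 2430 and BX571823.1 at 2426 FPKM. Their lengths of 2429 to 2714 bases were also close, and together they held 2.17% of the FPKM of the library. In pre-vitellogenic follicles the 7 ranged from 797.8 FPKM for zgc:171750 to 1102 FPKM for zgc:171474, also the lowest and the highest in primary growth. Their order is not resolved, since the primary growth bounds, 51.0 to 3022 FPKM for zgc:171750 and 0 to 5362 FPKM for zgc:171474, overlap.

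The second cluster, at chr9:8332476-8453670, held 8 members out of 8 coding genes and 15302 FPKM. This sum includes 21.2 FPKM of the chromosome 14 ID that shares the name ddx41. Its highest were zgc:171776, zgc:153499 and the ID pooled under ddx41, and its lowest was si:ch1073-75o15.4 at 636.5 FPKM. On chromosome 22 there were 2 clusters, at 25807790 to 25934871 and at 26196273 to 26305320. The first held 4 members out of 4, zgc:171781, si:ch211-226h8.14, si:ch211-12h2.6 at 2160 and si:dkey-240e12.6 at 1729 FPKM, all 528 to 650.3 bases long. The second held 5 members out of 7 coding genes and 8502 FPKM. At chr10:19598885-19627994 CABZ01059627.1, CABZ01059627.2 and zgc:173837, at 1928 FPKM, were 3 of 3 coding genes and summed to 10916 FPKM.

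The remaining clusters were smaller. On chromosome 21, at 42036216 to 42072198, 4 of 4 coding genes summed to 7238 FPKM, with si:ch211-263m18.4 the highest. Chromosome 20 had 3 of 4 coding genes at 54373221 to 54390995 with 6818 FPKM, and the zp2 genes described above with 4277 FPKM. Chromosome 19 had 4 of 5 at 28034380 to 28074507 with 5550 FPKM, and chromosome 11 had 3 of 4 at 30415872 to 30448610 with 5325 FPKM. The last, on chromosome 9 at 34179380 to 34254967, joined atp5o with 2 clone-named genes at 2254 FPKM in all. By chromosome, the members were most numerous on chromosome 9, with 17 (8.54% of those with a position, against 3.46% of coding genes), and on chromosome 24, with 14 (7.04% against 2.82%).

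As context, the pre-vitellogenic library was less concentrated. Its own first 200 genes held 24.5% of its 608220 FPKM, and 973 genes were needed for 50% of its coding FPKM. Of the 200 primary growth genes 158 (79.0%) were also among the first 200 there, and the 200 held 21.4% of that library. On the log2(FPKM + 1) scale, 141 of the 200 were lower there by 2-fold or more, as were 6.53% of all 14480 genes that reached 1 FPKM in either library. With both libraries set to the same FPKM total the count was 89, and with differences centred on their median it was 184. Only mt-co1, from 602.1 to 3638 FPKM, was higher there by as much, against 29.1% of all genes. The median log2 difference was -1.23 for the 200 genes and 0.50 for all genes. Since the 200 were ranked on the primary growth value, which is a side of this contrast, nothing is read from these counts, and they have no replicate check.

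Within the 200 the differences were uneven, and the genes of this paragraph were picked for their values. The dynein light chain gene dynll1 had the largest difference in fold terms, from 689.5 to 55.2 FPKM, followed by CU929143.1, from 3238 to 333.6 FPKM. At the other end ckbb had 984.0 and 1150, ctsla 924.3 and 978.0, and elovl7b 607.2 and 683.6 FPKM in primary growth and pre-vitellogenic follicles. With mt-co1 these were the 4 members whose value was higher in the pre-vitellogenic library.

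The listed miRNAs made up a small part of the small RNA library. The 118 listed miRNAs summed to 4600 RPM, or 60483 reads, which is 0.460% (Wilson 95% interval 0.456 to 0.464) of the 13147324 reads that the values imply as the total. Of the 118, 76 were above 0, and the lowest value above 0 corresponded to 6 reads in each library, so the table may list only miRNAs from 6 reads upward. In the pre-vitellogenic library, with an implied total of 19043107 reads, the listed miRNAs summed to 31842 RPM, or 3.18% of the total. Intervals on read numbers cover counting error only.

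A feature of the read numbers bears on all miRNA levels. For several miRNAs encoded by more than 1 precursor, the read number was a whole multiple of the number of precursors named in the mRNA table. miR-9-5p, with 7 precursors, had 2352 reads here and 5068 in the later stage, 7 times 336 and 7 times 724. miR-26a-5p and miR-125b-5p, with 3 precursors each, had read numbers divisible by 3 in both libraries. Both numbers were such multiples in 8 of the 12 members with 2 or more named precursors, but 5 of these 8 have 2 precursors, so that their numbers are only even. Of the 8 members with 1 named precursor, 5 also had even numbers in both libraries. let-7a, with 6 named precursors, did not have a multiple of 6 in either library. The 452 primary growth reads of miR-7a, with 3 named precursors, were no multiple of 3. With 2 named precursors each, miR-181a-5p had an odd number in the later stage and miR-204-5p in both libraries. Entries with the same mature sequence also had equal read numbers. miR-126a-5p and miR-126b-5p had 58 each in primary growth, and let-7c-3p and let-7d-3p had 112 each in the later stage. Whether a read was counted once for each genomic copy was not tested. If it was, the levels of multi-copy miRNAs are too high and the intervals too narrow. Dividing each read number by its number of named precursors kept 17 of the 20 members, moved let-7a from rank 4 to 12 and miR-9-5p from 8 to 15, and left miR-22a-3p, miR-100-5p and miR-20a-5p as the first 3.

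As deposited, the 20 most abundant miRNAs held 93.7% of the listed reads (Wilson 95% interval 93.5 to 93.9), 56652 in number. The first 2 held 37.3%, the first 3 held 49.7% and the first 10 held 81.8%. At the top miR-22a-3p had 865.4 RPM and miR-100-5p 851.1 RPM, a ratio of 1.02 whose 95% interval, 0.991 to 1.04, includes 1. miR-20a-5p followed at 569.7 RPM, then let-7a at 301.4, miR-26a-5p at 254.7 and miR-92a-3p at 232.1 RPM. miR-143 stood at 185.9, miR-9-5p at 178.9, miR-99 at 164.6 and miR-21 at 157.1 RPM. The range from the first to the 20th was 37.2-fold.

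**Figure D5:**
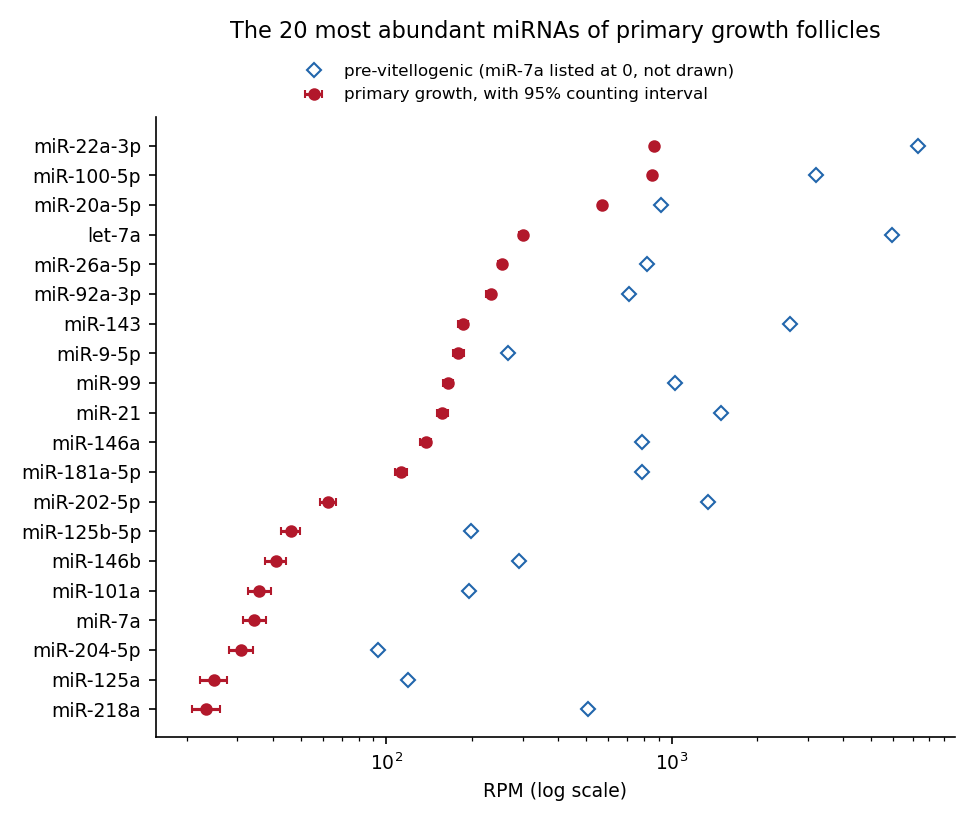
Level of the 20 most abundant miRNAs in RPM (horizontal axis, log scale). Red points are primary growth follicles with the Wilson 95% interval for counting error, and open blue diamonds are pre-vitellogenic follicles, 1 library each. The red points fall from 865.4 RPM for miR-22a-3p to 23.3 RPM for miR-218a, and every diamond drawn lies to the right of its red point.

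Lower in the ranking, miR-146a had 137.1, miR-181a-5p 112.6, miR-202-5p 62.4, miR-125b-5p 46.1 and miR-146b 40.8 RPM. The last members were miR-101a at 35.8, miR-7a at 34.4, miR-204-5p at 30.8, miR-125a at 24.8 and miR-218a at 23.3 RPM. Just outside were miR-430a-3p at 21.4, let-7e at 20.7, miR-26b at 17.9, miR-199-3p at 14.4 and miR-724 at 13.8 RPM. Of the 19 neighbouring pairs among the 20, 6 did not differ beyond counting error. Beside the first pair these were miR-143 and miR-9-5p, miR-99 and miR-21, miR-101a and miR-7a, miR-7a and miR-204-5p, and miR-125a and miR-218a.

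The 20 miRNAs carried 17 distinct seeds. The seed ACCCGTA of miR-100-5p and miR-99 held the most, 1016 RPM or 22.1% of the listed reads, and the sequences of its carriers above differ by the single substitution A16T, counted from 1 at the 5′ end of miR-100-5p. Despite this likeness miR-100-5p was 5.17 times as abundant as miR-99. The seed GAGAACT was shared by miR-146a and miR-146b, known as regulators of NF-kB signalling, with 178.0 RPM together. miR-125b-5p and miR-125a share CCCTGAG and were at 46.1 and 24.8 RPM. The let-7 seed GAGGTAG was carried by 10 listed miRNAs, of which 9 were above 0 and only let-7a was a member, 14.6 times as abundant as let-7e, the next. Divided by named precursors, let-7a had 660.3 reads and let-7e 272. Among the 20, 16 began with T and 4 with A, while 64.4% of all listed miRNAs began with T. Their lengths were 21 to 23 bases.

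Some members are neighbours in the genome. On chromosome 1 the precursor of miR-20a-5p lies at 2806565 to 2806717. Close to it, 1 of the 2 named precursors of miR-92a-3p lies at 2806869 to 2806953 (Zv9). Both miRNAs belong to the vertebrate miR-17-92 cluster. On chromosome 15 the precursors dre-mir-100-1 (20399275 to 20399370), dre-let-7a-2 (20399518 to 20399601) and dre-mir-125b-1 (20409298 to 20409442) follow each other, an arrangement known from many animals. The 3 mature miRNAs from this stretch were at 851.1, 301.4 and 46.1 RPM, and let-7a and miR-125b-5p have further named precursors elsewhere. For miR-100-5p only dre-mir-100-1 is named, and whether it has others was not tested. miR-22a-3p has 1 named precursor, on chromosome 15 at 24261942 to 24262027.

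Of the miRNAs known to mark other cells, miR-143 of smooth muscle stood at rank 7, while its usual partners miR-145-5p and miR-145-3p were listed at 0. The endothelial miR-126a-3p was at 13.8 RPM. miR-126a-5p and miR-126b-5p were at 4.41 RPM each, but both entries have the same sequence and the same 58 reads, so they are not separate levels. The leukocyte miR-142a-3p was at 0.608 RPM, 8 reads, and the erythroid miR-144-5p was listed at 0. Other markers set for these cells, erythroid miR-451 and leukocyte miR-142b and miR-223, are not among the listed miRNAs. The gonadal miR-202-5p had 62.4 RPM here and 1347 RPM in the later stage. miR-430a-3p, of the family that clears maternal mRNAs in the zebrafish embryo, had 21.4 and 7.77 RPM.

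Of the 20 miRNAs 17 were also among the first 20 in pre-vitellogenic follicles, where the 20 held 90.0% of listed reads. Of the 18 members that reached 100 RPM in either library, 16 were 2-fold or more higher in the later stage, on the log2(RPM + 10) scale, against 92.6% of the 27 listed miRNAs that reached this level. The 2 exceptions were miR-20a-5p, from 569.7 to 919.0 RPM, and miR-9-5p, from 178.9 to 266.1 RPM. The listed miRNAs as a whole summed to 4600 RPM in primary growth and 31842 RPM in the later stage, and each difference includes this shift. The median log2 difference was 2.50 for the 18 members and 2.70 for the 27 miRNAs. On this scale let-7a had the largest difference among the members, from 301.4 to 5939 RPM. It was followed by miR-202-5p, miR-218a and miR-143, the last with 2596 RPM in the second library. The order depends on the pseudocount. In RPM without it, miR-218a, from 23.3 to 509.7, and miR-202-5p, from 62.4 to 1347, had a larger fold than let-7a. miR-7a was listed at 0 in pre-vitellogenic follicles.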

How the data were processed

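The members and the gene lists were chosen with earlier results of these data known. The authors deposited an FPKM, with a lower and an upper bound, for each transcript. Small RNA values stand under the heading RPKM, but each deposited value was a whole multiple of 0.0761 RPM (primary growth) or 0.0525 RPM (pre-vitellogenic) within 0.01 steps, whatever the miRNA's length, and the values were read as RPM. The submitters' processing notes name Zv9, TopHat2 2.0.11 and Cufflinks 2.2.1; the sources used here do not say how small RNA reads were mapped. Libraries were grouped by cell type label, and table columns were matched by the stage in their names.

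Rows were summed by gene name, and 1183 rows without a name by gene ID, which gave 29458 genes. A gene's length is its transcripts' length, in bases as deposited, weighted by FPKM. Gene type came from the table or, for 225 of 7012 IDs without one, from RefSeq (assembly GRCz12tu), and 21938 of 33734 IDs had a current symbol. The named genes were the first 25, up to 4 per list, all ZP members, those next to rank 200, all 20 miRNAs and all markers; cluster genes and those said to be picked for their values were added. In levels between stages a pseudocount of 1 FPKM or 10 RPM was used. Each stage had 1 library of each kind, so no test was made. Ranking and the recovery of read numbers were tested on simulated data, and clustering was not. Analyses used Python 3.11.15, pandas 2.3.3 and SciPy 1.17.1.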

Additional observations from a re-analysis of the deposited data

How the results depend on the processing

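The share of FPKM held by the first 200 genes, 41.4%, was 41.1% with rows summed by gene ID, 42.0% without a length limit, 39.5% from 500 bases upward, 35.7% with only each gene's most abundant transcript, 42.5% over coding genes of any length, 41.6% without mitochondrially encoded genes and 41.6% without rows under 1 FPKM. Ranked and summed by FPKM times length, a choice made after seeing the data, it was 38.1%, with 12 ribosomal protein genes in place of 32. With genes ranked anew by the deposited lower bounds, the first 200 held 85.5% of the sum of these bounds. In the main ranking by FPKM, 72 of the 200 have a main transcript with a bound of 0. Where they were counted, ZP genes numbered 12 to 14, against 13, and ribosomal protein genes 30 to 35 in all but FPKM times length. They were not counted without mitochondrially encoded genes or without rows under 1 FPKM. The share of the first 20 miRNAs, 93.7%, was 0.431% of the library total and 96.5% with miRNAs of 1 seed summed. It was 94.1% with read numbers divided by named precursors, a choice added after seeing the data. With miRNAs under 100 RPM left out it was 100%. That value was fixed in advance, since only the first 12 miRNAs reached 100 RPM in primary growth. Of the 200 genes 141 were 2-fold or more lower in the later stage, 89 when both libraries had the same FPKM total and 184 when centred on the median difference of 0.42 (log2). Clusters, added after seeing the data, held 47 genes at 100 kb, 37 at 50 kb and 49 at 200 kb. The largest held 8 genes at 100 kb, 7 at 50 kb and 11 at 200 kb, the last on chromosome 22. No paired analysis was possible because each stage has 1 library of each kind, and for the same reason no replicate could be left out. Unknown mRNA depth and wide bounds limit the order of single genes.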

Other observations

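Several RNAs as abundant as the 200 genes fell outside their definition. In all 10 genes above the level at rank 200 were left out, as non-coding or as shorter than 300 bases. The highest was si:dkeyp-98a7.2, annotated as a transcribed pseudogene on chromosome 22 at 26162260 to 26163496 (Zv9), with 3936 FPKM in primary growth and 1280 FPKM in pre-vitellogenic follicles. The pseudogene BX571823.5, with 1522 FPKM, lies on chromosome 24 at 9783009 to 9784529, between members of the cluster of 7 abundant genes described there. Among short coding genes were si:ch1073-228p2.2, of 153 bases, at 3638 FPKM and pmaip1, the apoptosis gene Noxa, at 1274 FPKM. The mitochondrial gene mt-atp8 had 1151 FPKM in primary growth and 10847 FPKM in pre-vitellogenic follicles.

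The mRNA table also lists miRNA precursors. The row dre-mir-7a-3 had 356.0 FPKM in primary growth and 100.2 FPKM in pre-vitellogenic follicles, and the mature miR-7a was at 34.4 RPM in the first and listed at 0 in the second. The row dre-mir-96 had 98.2 FPKM in primary growth and was listed at 0 in the other library, whereas the mature miR-96-5p was listed at 0 in primary growth and at 0.893 RPM in the other. The 6 let-7a precursor rows were listed at 0 in primary growth, where mature let-7a was at 301.4 RPM, and of them only dre-let-7a-5 was above 0 in pre-vitellogenic follicles, at 207.0 FPKM. The row dre-mir-30d had 57.9 and 207.2 FPKM. These are single estimates for features shorter than a usual mRNA fragment.

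Read numbers of let-7a were 3962 and 113099, which are 7 times 566 and 7 times 16157, although the mRNA table names 6 let-7a precursors. All of the first 10 miRNAs had an even read number in primary growth follicles, as had 16 of the 20, and 39 of the other 56 above 0.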
